A study of Mus musculus with 8 samples.

Results

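Transcripts of 8 chemokines and of interleukin 6 (Il6) were followed in primary mouse embryonic fibroblasts, the adherent cultures grown from dissociated embryos. The members were 9 of the 24972 genes measured, taken by name and split by how they are usually driven. An interferon-driven set of 3 held Cxcl9, Cxcl10 and Ccl5, and the other 6, driven by NF-kB or made constitutively, were Ccl2, Ccl7, Cxcl1, Cxcl5, Cxcl12 and Il6. All 9 had values above 0 in every library, and 8 had a mean of at least 10 normalized counts and entered the tests, leaving out Cxcl9.

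The study held 8 RNA sequencing libraries of untreated fibroblasts from embryos at embryonic day 14, harvested after 2 passages in serum-containing medium. The 4 genotypes were wild type (WT), heterozygous for Tfam (Tfam+/-), without Zbp1 (Zbp1-/-), and the combination of both (Tfam+/-Zbp1-/-), with 2 libraries each. Tfam is the protein that packages mitochondrial DNA, and Zbp1 is an interferon-inducible sensor of nucleic acids in the Z conformation. The crosses ask whether what goes with the loss of a Tfam allele is also seen without Zbp1. The labels do not give strain or sex, nor whether the paired libraries are from different embryos, so the p-values measure only the spread between these libraries, which may be technical.

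Chemokines are small secreted proteins that steer leukocytes through receptors coupled to G proteins. Type I interferon acts on promoters through STAT and IRF factors bound at interferon-stimulated response elements (ISRE), whereas inflammatory signals act through NF-kB sites, and some promoters carry both. Fibroblasts are a stromal source of both kinds, and Cxcl12 is a chemokine that they make without stimulation.

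The promoters below show which of these elements lie close to the start sites. RefSeq promoter windows of GRCm38.p6 were matched for 5 of the 9 members (Cxcl9, Cxcl10, Cxcl1, Cxcl12 and Il6). The 4 printed are 1 interferon-driven promoter, both NF-kB-driven ones that were matched, and the constitutive Cxcl12. Each line gives the 250 bases before the start site, 5′ to 3′ on the gene's strand, and capitals mark motif matches.
Cxcl10: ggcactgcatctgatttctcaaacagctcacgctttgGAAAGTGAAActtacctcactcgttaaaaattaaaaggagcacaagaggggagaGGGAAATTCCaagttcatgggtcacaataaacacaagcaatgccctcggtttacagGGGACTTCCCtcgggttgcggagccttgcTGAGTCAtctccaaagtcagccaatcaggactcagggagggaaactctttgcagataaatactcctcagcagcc
Cxcl1: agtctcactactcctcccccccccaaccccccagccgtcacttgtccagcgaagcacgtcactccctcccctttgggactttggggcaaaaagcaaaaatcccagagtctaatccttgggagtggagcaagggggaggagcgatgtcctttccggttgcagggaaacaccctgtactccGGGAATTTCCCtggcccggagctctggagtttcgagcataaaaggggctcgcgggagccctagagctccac
Il6: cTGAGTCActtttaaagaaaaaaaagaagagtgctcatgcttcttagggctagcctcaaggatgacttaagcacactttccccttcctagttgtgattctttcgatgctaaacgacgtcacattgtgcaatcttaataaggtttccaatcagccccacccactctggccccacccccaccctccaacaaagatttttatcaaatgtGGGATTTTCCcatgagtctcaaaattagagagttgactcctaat
Cxcl12: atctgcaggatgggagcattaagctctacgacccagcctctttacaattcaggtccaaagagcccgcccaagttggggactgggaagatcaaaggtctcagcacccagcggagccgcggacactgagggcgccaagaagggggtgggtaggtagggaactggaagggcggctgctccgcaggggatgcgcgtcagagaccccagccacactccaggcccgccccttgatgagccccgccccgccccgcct
The Cxcl10 window is chr5:92348890-92349139 on the minus strand. The other windows are on the plus strand, Cxcl1 at chr5:90890995-90891244, Il6 at chr5:30012864-30013113 and Cxcl12 at chr6:117168285-117168534.

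Both strands of the 300-base windows, which run from 250 bases before to 50 after the start, were searched for 4 motifs. The ISRE was the letters GAAA, any 2 bases, then GAAA, and the NF-kB site was the usual decamer. The STAT site (GAS) was TTC and GAA parted by any 3 bases, and the AP-1 site was TGANTCA. Of 32851 promoters of that length, an ISRE was found in 3.44%, an NF-kB site in 4.50%, a GAS in 8.30% and an AP-1 site in 7.81%. Positions count the first transcribed base as 1 and the base before it as -1. Cxcl10 held an ISRE at bases -213 to -204, NF-kB matches at -159 to -150 and -103 to -94, and an AP-1 match at -74 to -68. Cxcl1 held 2 overlapping NF-kB matches on opposite strands at -71 to -61. Il6 held an NF-kB match at -44 to -35 and an AP-1 match at -249 to -243. Cxcl9 had an AP-1 match after its start, at bases 32 to 38, and Cxcl12 had no match to any of the 4. A match is a string of letters and not a shown binding site, and these letters may also lie outside the windows.

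Library totals were 16752834.5 to 18303036.3 normalized counts. Tfam (chromosome 10, 71225468 to 71238328) was at 629 and 610 for WT, 278 and 365 for Tfam+/-, 675 and 471 for Zbp1-/- and 424 and 375 for Tfam+/-Zbp1-/-, with a log2 change of -0.96 ± 0.21 (SE) in Tfam+/- against WT (limma adjusted p = 0.16). Zbp1 (chromosome 2, 173206612 to 173218959) was at 7.34 and 3.19 for WT, 64.6 and 69.8 for Tfam+/-, 3.79 and 1.03 for Zbp1-/- and 0.861 and 2.69 for Tfam+/-Zbp1-/-. Zbp1 was thus low in WT already, and Zbp1-/- replicate 1 lay above WT replicate 2, so this transcript did not separate those genotypes. Tfam+/- replicate 1 and Zbp1-/- replicate 2 differed from the other library of their genotype in the same direction. The replicate 1 minus replicate 2 differences of these genotypes correlated at -0.70, which does not tell which library of each stands apart. The libraries of these genotypes differed by at least 1.5 times in 22.3% and 19.6% of genes, against 3.39% in WT and 3.05% in Tfam+/-Zbp1-/-. A fit with a term shared by Tfam+/- replicate 1 and Zbp1-/- replicate 2, added after the data were seen, is therefore given beside the fit without it. In limma 8669 of the 13267 tested genes had a shared term at adjusted p under 0.05. The term takes the other library of each genotype as the reference. Changes that involve Tfam+/- or Zbp1-/- depend on that choice in this fit, and the opposite choice was not fitted. The libraries given the term were picked from the same spread that its p-values are judged against. P-values and counts of that fit are therefore too favourable and serve only as a description. All 10 fibroblast markers were present, among them Col1a1 at 103969 to 193671, while the endothelial Pecam1 and Cdh5, the epithelial Epcam and Cdh1 and the muscle gene Myod1 did not exceed 7.48. Other markers of those lists were higher, with the endothelial Kdr at 148 to 332 and Tek at 25.1 to 89.4, the epithelial Krt8 at 55.1 to 169 and Krt18 at 57.0 to 230.1, and the muscle gene Des at 358 to 899. The 5 epithelial markers summed to 273 to 402 in Tfam+/- and 120 to 138 in Tfam+/-Zbp1-/-, where both tested ones, Krt8 and Krt18, were called lower than in Tfam+/-. Krt8 and Krt18 made up nearly all of this sum. The list's mean log2 level did not show the same drop. Tfam+/- replicate 1 had 3.61 and replicate 2 had 3.15, with both Tfam+/-Zbp1-/- libraries between them, at 3.36 and 3.41. Of the low, untested markers, Epcam (3.85, 2.99) and Cdh1 (2.84, 2.95) were higher in the Tfam+/-Zbp1-/- libraries, against at most 1.99 for Tfam+/-, while Krt5 overlapped. Fibroblast markers differed as well. All 10 were above WT in Zbp1-/-, with a median log2 change of 0.47 and 1 called, where 1.06% of all tested genes were. In Tfam+/-Zbp1-/- against Tfam+/- 2 of the 10 were called, both higher, where 5.64% of all were. Of 5 neural crest and Schwann markers 4 were tested, all above WT in Zbp1-/- with a median of 0.66, none called. The part of these markers in the results was not tested.

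Transcripts of leukocytes were present too, and their level differed between genotypes. The summed level of 16 macrophage and leukocyte markers was 5861 to 5916 in WT, 6895 to 8224 in Tfam+/-, 3734 to 3782 in Zbp1-/- and 2992 to 3008 in Tfam+/-Zbp1-/-. Of the 16, 14 were above 0 and tested, and the T cell gene Cd3e was at 0 in all 8 libraries. In Tfam+/-Zbp1-/- against Tfam+/- 12 of 14 fell and none rose, where 5.64% of all 13267 tested genes were called. In Tfam+/- against WT none of 14 was called, with a median of 0.43, where 0.731% of all were, and the shared term gave 7 of 14 higher and none lower, where 15.6% of all were called. Without Tfam+/-Zbp1-/- replicate 1 or 2 the count of 12 became 0, while the median stayed at -1.32 and -1.24. Macrophages make several of the chemokines described, and the part of these cells in the results was not tested. In such bulk samples fewer cells of a type and less RNA per cell cannot be told apart.

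Levels per kilobase of exon put the members in an order that spanned about 3 orders of magnitude. In WT the mean normalized count per kilobase was 1381 for Cxcl12, 1002 for Ccl7, 940 for Ccl2 and 422 for Cxcl5. Far below them were Cxcl1 at 39.1, Cxcl10 at 24.3, Il6 at 7.03, Ccl5 at 3.59 and Cxcl9 at 1.19, and no neighbours in that order overlapped in WT. Tfam+/- cells had Ccl2 first at 2333 per kilobase and Ccl7 next at 1804, overlapping each other, with Cxcl12 after them at 745. Cxcl10 stood at 141 and Ccl5 at 56.0 there, both above Cxcl1 at 25.7. In Zbp1-/- the first 3, Ccl7 at 1251, Ccl2 at 1224 and Cxcl12 at 1172 per kilobase, overlapped in their order. In Tfam+/-Zbp1-/- Ccl7 at 1151 and Ccl2 at 1118 overlapped, as did Cxcl10 at 33.6 and Ccl5 at 25.5, while Cxcl12 stood at 969.

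**Figure D1:**
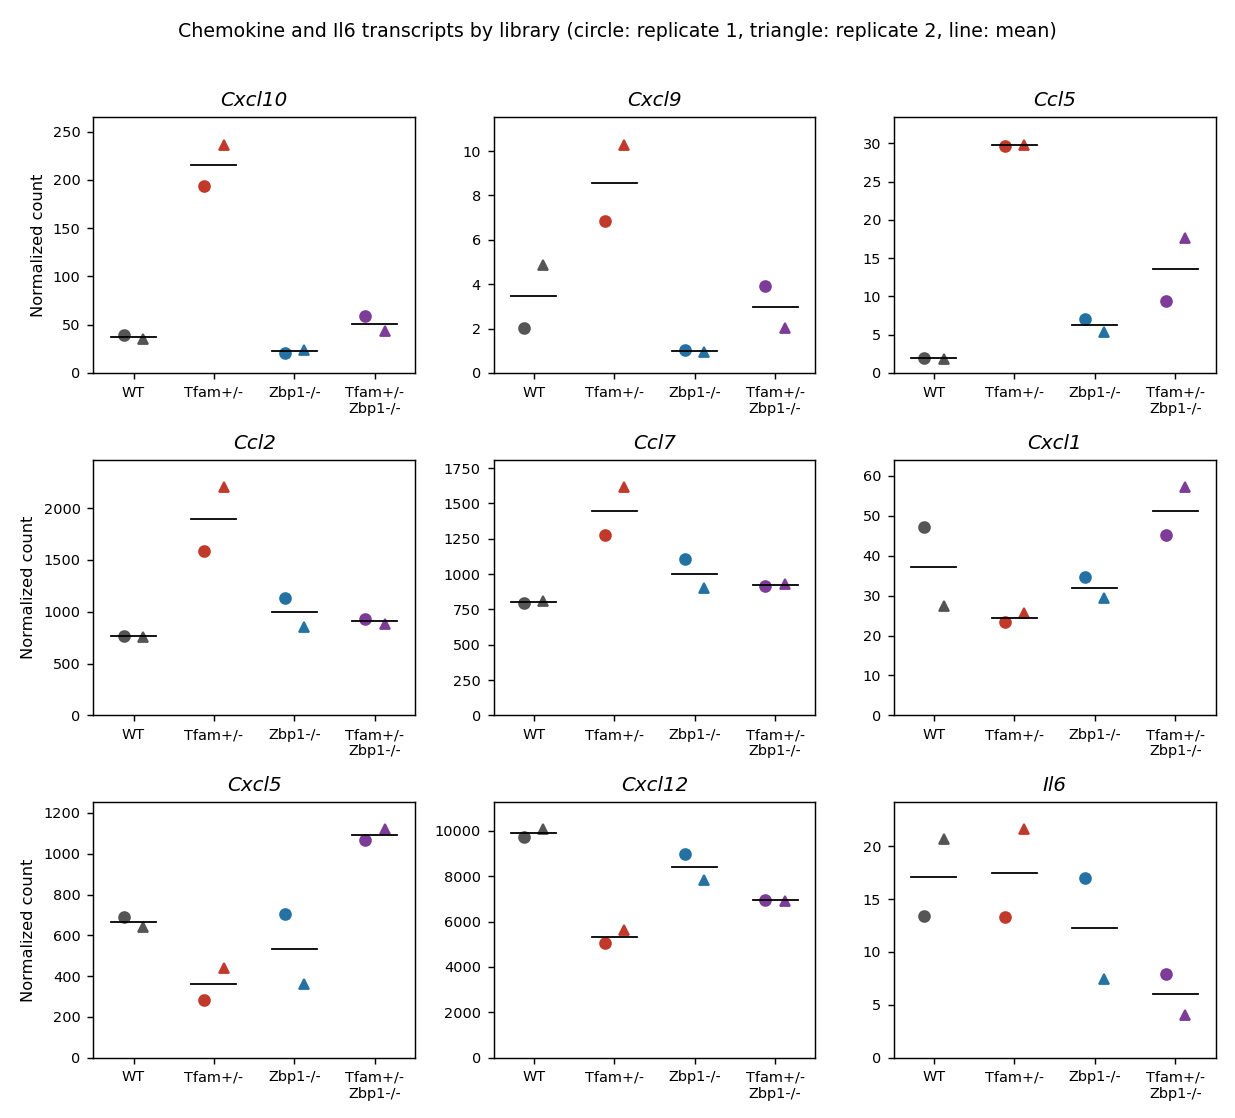
Normalized counts of the 9 members (vertical axes, each from 0) in the 4 genotypes (horizontal axes); circles are replicate 1, triangles replicate 2 and lines the mean of the 2 libraries. Cxcl10, Ccl5, Ccl2 and Ccl7 were highest in both Tfam+/- libraries, Cxcl12 was lowest there, and Cxcl5 was highest in both Tfam+/-Zbp1-/- libraries at 1065 and 1119.

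Cxcl10 and Ccl5 were the members with the largest increases in Tfam+/- fibroblasts, and Ccl2 rose with them while Cxcl12 fell. Tested against WT with limma, 4 of the 8 tested members passed an adjusted p under 0.05, 3 higher and 1 lower, where 0.731% of all tested genes passed. The median log2 change of the 8 was 0.43, beside -0.01 over all tested genes. With the shared term 6 of 8 passed, 4 higher and 2 lower, where 15.6% of all genes did.

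In the interferon-driven set, Cxcl10 (chromosome 5, 92346638 to 92348889), a ligand of Cxcr3 that attracts activated T cells and natural killer cells, was at 38.8 and 35.0 normalized counts in WT. Tfam+/- libraries had 193 and 237, Zbp1-/- libraries 21.0 and 24.0, and Tfam+/-Zbp1-/- libraries 58.6 and 43.7. Both Tfam+/- libraries lay far above the other 6, and no 2 genotypes overlapped. Cxcl10 rose 5.82-fold from WT to Tfam+/- in mean level, a log2 change of 2.50 ± 0.22 on the log2(normalized count + 1) scale (limma adjusted p = 0.0057). That call was lost without WT replicate 1 (2.58, adjusted p = 0.075) or WT replicate 2 (2.43, adjusted p = 0.084), as tested with limma. Adding the shared term gave 2.53 ± 0.23.

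Ccl5 (chromosome 11, 83525778 to 83530518), which attracts T cells and monocytes, was at 1.96 and 1.86 in WT, and at 29.7 and 29.8 in Tfam+/-. It was at 7.08 and 5.32 in Zbp1-/- and at 9.46 and 17.7 in Tfam+/-Zbp1-/-. The 4 genotypes did not overlap, and all 6 mutant libraries lay above both WT libraries. Ccl5 rose by a log2 change of 3.40 ± 0.38 in Tfam+/- against WT (limma adjusted p = 0.016). Ccl5 reached the mean of 10 needed for testing only through the Tfam+/- libraries, so its entry into the test depended on the difference tested. In the fit over 18320 genes without that filter the limma adjusted p was 0.017. No ratio is given because the WT values lay near 2 times the commonest value above 0 in these libraries, 0.932 to 1.10. The call was lost in limma without WT replicate 1 (adjusted p = 0.16), WT replicate 2 (0.15), Tfam+/- replicate 1 (0.092) or Tfam+/- replicate 2 (0.076).

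Cxcl9 (chromosome 5, 92321331 to 92328079), the other Cxcr3 ligand measured and the one most tied to interferon gamma, was near the detection limit throughout. It was at 2.04 and 4.86 for WT, 6.86 and 10.3 for Tfam+/-, 1.04 and 0.953 for Zbp1-/- and 3.94 and 2.04 for Tfam+/-Zbp1-/-. Both Tfam+/- libraries were the highest, and both Zbp1-/- libraries the lowest, at about the commonest value above 0. With its mean of 4.00 it did not enter the main tests. In a limma fit over 18320 genes without the filter its log2 change in Tfam+/- against WT was 1.16 ± 0.45 (adjusted p = 0.56). Its neighbour Cxcl11, 31464 bases away and annotated as a pseudogene, was at 0 in all libraries but WT replicate 1, which had 0.981.

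Among the NF-kB-driven members, the monocyte attractants Ccl2 and Ccl7 were high in every library and highest in Tfam+/-. Both act through Ccr2, and their genes lie 8259 bases apart on chromosome 11. Ccl2 (82035577 to 82037452) was at 769 and 760 for WT, 1589 and 2205 for Tfam+/-, 1134 and 856 for Zbp1-/- and 931 and 886 for Tfam+/-Zbp1-/-. The Tfam+/- libraries lay above all others, the WT libraries below all others, and Zbp1-/- overlapped with Tfam+/-Zbp1-/-. Ccl2 rose 2.48-fold from WT to Tfam+/-, a log2 change of 1.29 ± 0.19 (limma adjusted p = 0.046). This call was lost in limma without WT replicate 1 (adjusted p = 0.42), WT replicate 2 (0.39), Tfam+/- replicate 2 (1.05, 0.10) or either Tfam+/-Zbp1-/- library (0.16 for both). Adding the shared term gave 1.51 ± 0.05 (limma adjusted p = 2.1e-13).

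Ccl7 (82045712 to 82047525) had the same layout at 798 and 807 for WT, 1273 and 1616 for Tfam+/-, 1104 and 900.2 for Zbp1-/- and 914 and 930.5 for Tfam+/-Zbp1-/-. The log2 change of Ccl7 in Tfam+/- against WT was 0.84 ± 0.15 and did not pass the test (limma adjusted p = 0.096). With the shared term, picked from these same data, that change was 1.00 ± 0.05 (limma adjusted p = 6.0e-11). Over the 8 libraries the log2 levels of Ccl2 and Ccl7 had a Pearson correlation of 0.99 and a Spearman correlation of 0.95. These libraries share their genotypes, and related sequence could let reads of one gene count for the other, as how reads were counted is not stated.

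The neutrophil attractants Cxcl1 and Cxcl5, ligands of Cxcr2, did not follow Ccl2 and Ccl7. Cxcl5 (chromosome 5, 90759298 to 90761625) was at 688 and 641 for WT, 283 and 438 for Tfam+/-, 703 and 363 for Zbp1-/- and 1065 and 1119 for Tfam+/-Zbp1-/-. The Tfam+/-Zbp1-/- libraries lay above all others and the Tfam+/- libraries below both WT libraries, but Zbp1-/- reached from the level of Tfam+/- to that of WT. Its log2 change in Tfam+/- against WT was -0.91 ± 0.33 (limma adjusted p = 0.48). The shared term changed this to -0.52 ± 0.08 (adjusted p = 1.4e-04), so the fitted size moved by more than its error. The shared term of Cxcl5 itself was -0.79, the largest among the members where it passed. Both libraries given the term held the lower Cxcl5 value of their genotype.

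Cxcl1 (chromosome 5, 90891245 to 90893121) was far less abundant at 47.2 and 27.4 for WT, 23.3 and 25.6 for Tfam+/-, 34.7 and 29.3 for Zbp1-/- and 45.3 and 57.2 for Tfam+/-Zbp1-/-. Its WT libraries lay on either side of both Zbp1-/- libraries, and its log2 change in Tfam+/- against WT was -0.54 ± 0.30 (limma adjusted p = 0.56). Cxcl1 and Cxcl5 levels had a Pearson correlation of 0.86 and a Spearman correlation of 0.86 over the 8 libraries.

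Constitutive Cxcl12 (chromosome 6, 117168535 to 117181368), the stromal ligand of Cxcr4 and Ackr3, was at 9722 and 10056 for WT, 5056 and 5616 for Tfam+/-, 8964 and 7820 for Zbp1-/- and 6954 and 6925 for Tfam+/-Zbp1-/-. The genotypes did not overlap, and all 6 mutant libraries lay below both WT libraries, in the reverse of the order of Ccl5. Cxcl12 fell 1.85-fold in Tfam+/- against WT, a log2 change of -0.89 ± 0.11 (limma adjusted p = 0.020). The call was lost in limma without WT replicate 1 (adjusted p = 0.24), WT replicate 2 (0.27), Tfam+/- replicate 1 (-0.82, 0.080) or either Tfam+/-Zbp1-/- library (0.0998 and 0.0997). Adding the shared term gave -0.80 ± 0.03. Over the 8 libraries the Pearson correlation of Cxcl12 with Ccl5 was -0.95, a description of libraries that share their genotypes.

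Il6 (chromosome 5, 30013114 to 30019975), the cytokine that signals through Il6ra and Il6st, did not differ detectably between WT and Tfam+/-. It was at 13.4 and 20.7 for WT, 13.4 and 21.6 for Tfam+/-, 16.99 and 7.48 for Zbp1-/- and 7.88 and 4.09 for Tfam+/-Zbp1-/-. WT and Tfam+/- covered nearly the same range, with a log2 change of 0.02 ± 0.51 and a 95% interval of -1.19 to 1.24 (limma adjusted p = 0.98). That interval still holds changes of either sign of more than 2-fold.

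**Figure D2:**
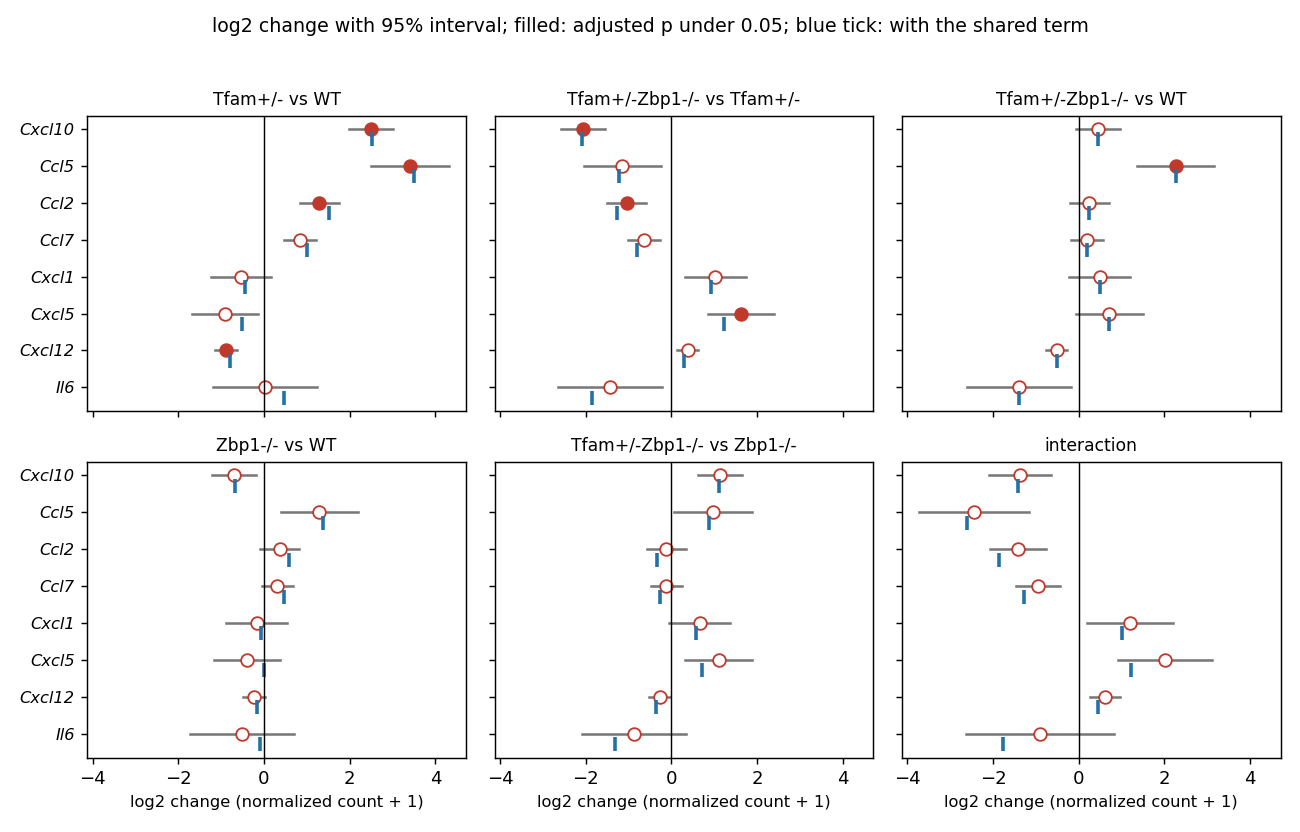
Log2 changes of the 8 tested members (horizontal axes, log2 of normalized count + 1) in 5 comparisons and the interaction, with limma 95% intervals as bars; filled points passed an adjusted p under 0.05, and blue ticks give the estimate with the shared term. In Tfam+/- against WT the filled points are Cxcl10, Ccl5, Ccl2 and Cxcl12, and in Tfam+/-Zbp1-/- against Tfam+/- they are Cxcl10, Ccl2 and Cxcl5.

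Where a Tfam allele was missing, the further absence of Zbp1 went with lower Cxcl10 and Ccl2 and higher Cxcl5. In limma 3 of 8 members passed in Tfam+/-Zbp1-/- against Tfam+/-, 1 higher and 2 lower, where 5.64% of all tested genes passed. The median log2 change of the 8 was -0.84, beside 0.14 over all tested genes. With the shared term 7 of 8 passed, 3 higher and 4 lower, where 45.6% of all genes did, so that nearly every second tested gene passed in that fit.

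Cxcl10 fell 4.20-fold from Tfam+/- to Tfam+/-Zbp1-/-, a log2 change of -2.06 ± 0.22 (limma adjusted p = 0.0045). Removing Tfam+/-Zbp1-/- replicate 1 left it at -2.27, and removing replicate 2 at -1.85, uncalled by limma at adjusted p of 0.055 and 0.068. Ccl2 fell 2.09-fold, by -1.04 ± 0.19 (limma adjusted p = 0.029). Its call was lost in limma without either WT library (adjusted p = 0.081 for both), Tfam+/- replicate 2 (-0.81, 0.056), Tfam+/-Zbp1-/- replicate 1 (0.18) or replicate 2 (0.21). The macrophage and leukocyte markers were lower in the same comparison, with a median of -1.32 over the 14 tested.

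Cxcl5 rose 3.03-fold between the same groups, a log2 change of 1.63 ± 0.33 (limma adjusted p = 0.037), or 1.23 ± 0.08 with the shared term. The call was lost in limma without WT replicate 1 or 2 (adjusted p = 0.0915 and 0.0913), Tfam+/- replicate 1 (1.32, 0.13), Tfam+/-Zbp1-/- replicate 1 (0.21) or replicate 2 (0.23). Cxcl1 had 1.03 ± 0.30 (adjusted p = 0.11) and Cxcl12 0.38 ± 0.11 (adjusted p = 0.097). Ccl7 had -0.64 ± 0.15 (adjusted p = 0.066), Ccl5 -1.14 ± 0.38 (adjusted p = 0.15) and Il6 -1.42 ± 0.51 (adjusted p = 0.18), all short of the limma threshold. All 8 members had an unadjusted p under 0.05 here, as did 2756 of the 13267 tested genes. The fit with the shared term left Ccl5 alone without a call, at -1.23 ± 0.53 (limma adjusted p = 0.067).

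Relative to WT, Ccl5 was the one member to pass in Tfam+/-Zbp1-/- fibroblasts, by a narrow margin. In limma 1 of 8 members passed in that comparison, where 1.38% of all tested genes did, and with the shared term 6 of 8 passed, where 42.5% did. Ccl5 was at 2.26 ± 0.38 (limma adjusted p = 0.049), in a test it entered only through its Tfam+/- values. Without the filter it was not called (limma adjusted p = 0.058), leaving no member called. Leaving out any 1 of the 8 libraries ended that call, with limma adjusted p from 0.062 to 0.36, and a pseudocount of 5 gave 1.39. Cxcl12 was at -0.51 ± 0.11 (limma adjusted p = 0.080), and at the same value with the shared term (adjusted p = 3.3e-11). Cxcl10 was at 0.45 ± 0.22, Cxcl5 at 0.72 ± 0.33 and Il6 at -1.40 ± 0.51, with limma adjusted p of 0.47, 0.44 and 0.32. For Il6, both Tfam+/-Zbp1-/- libraries lay below both WT and both Tfam+/- libraries, at 4.09 and 7.88 against at least 13.4.

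Loss of Zbp1 alone gave no call among the members. In Zbp1-/- against WT 0 of 8 passed in limma, where 1.06% of all tested genes did, and 2 had an unadjusted p under 0.05, as did 2619 of all. Those 2 were Cxcl10 at -0.69 ± 0.22 (adjusted p = 0.18) and Ccl5 at 1.30 ± 0.38 (adjusted p = 0.16), which lay in opposite directions. With the shared term 5 of 8 passed, 3 higher and 2 lower, where 35.6% did. Ccl2 was then at 0.59 ± 0.05 and Ccl7 at 0.47 ± 0.05, against 0.37 ± 0.19 and 0.31 ± 0.15 without the term.

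Loss of a Tfam allele in cells without Zbp1 likewise gave none. In Tfam+/-Zbp1-/- against Zbp1-/- 0 of 8 passed in limma, where 0.415% of all tested genes did, and 4 had an unadjusted p under 0.05, as did 1626 of all. The largest were Cxcl10 at 1.14 ± 0.22 (adjusted p = 0.11) and Cxcl5 at 1.11 ± 0.33 (adjusted p = 0.24). Ccl2 was at -0.12 ± 0.19, with a 95% interval of -0.58 to 0.34. With the shared term 5 of 8 passed, 2 higher and 3 lower, where 23.8% did, and Cxcl10 at 1.11 ± 0.23 was one of them (limma adjusted p = 0.0017).

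Whether the effect of the Tfam allele differed with Zbp1 was tested as an interaction, subtracting the change between WT and Tfam+/- from the one between Zbp1-/- and Tfam+/-Zbp1-/-. None of the 8 passed in limma, where 0.663% of all tested genes did, although 7 had an unadjusted p under 0.05, as did 2123 of all. The estimates were -1.37 ± 0.31 for Cxcl10, -2.43 ± 0.54 for Ccl5, -1.41 ± 0.27 for Ccl2 and -0.95 ± 0.22 for Ccl7. They were 2.02 ± 0.46 for Cxcl5, 1.20 ± 0.42 for Cxcl1 and 0.62 ± 0.15 for Cxcl12. The limma adjusted p of these 7 ran from 0.093 (Ccl2) to 0.28 (Cxcl1). Under the shared term 6 of 8 passed, 4 lower and 2 higher, where 16.9% did. In that fit Ccl2 was at -1.85 ± 0.08 (limma adjusted p = 1.5e-11), Cxcl10 at -1.42 ± 0.36 (adjusted p = 0.010) and Cxcl5 at 1.23 ± 0.12 (adjusted p = 8.4e-07).

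The members were next set beside the 50 genes of an interferon-stimulated list and 20 NF-kB targets. The mean log2 level of the interferon list was 6.64 and 6.66 for WT, 8.81 and 8.91 for Tfam+/-, 7.03 and 7.04 for Zbp1-/- and 7.22 and 7.31 for Tfam+/-Zbp1-/-. In Tfam+/- against WT 40 of 50 rose, with a median of 2.17, among them Usp18 by 4.81 and Isg15 by 4.33. In Tfam+/-Zbp1-/- against Tfam+/- 40 of 50 fell, with a median of -1.64. Some list genes, Oas2 and Oas3 among them, had a mean under 10 in every genotype but Tfam+/-. Their entry into the tests thus depended on the difference tested. Without the filter on the mean 36 rose and 38 fell. The shared term gave 49 higher and 48 lower, where 15.6% and 45.6% of all genes passed, against 0.731% and 5.64% without it. Without WT replicate 1 or 2 the first count was 11 or 10, without Tfam+/-Zbp1-/- replicate 1 or 2 it was 25 or 23, and without Tfam+/-Zbp1-/- replicate 1 or 2 the second was 3 in each case. Zbp1-/- libraries lay above WT on this list but below WT in Cxcl10. Ccl5, in contrast, had the 4 genotypes in the order of the list. Of 6 interferon genes, 5, Ifnb1 among them, were at 0 in every library, and Ifna4 was at 1.10 in Tfam+/- replicate 1 alone.

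Of the 20 NF-kB targets 19 were tested, and none passed in limma in Tfam+/- against WT, with a median of 0.23 beside -0.01 over all genes. Under the shared term 8 of the 19 passed, all higher, where 15.6% of all tested genes passed. In Tfam+/-Zbp1-/- against Tfam+/- 1 fell, Tnfaip3, an inhibitor of NF-kB signalling, by -0.73 ± 0.15 (limma adjusted p = 0.039), where 5.64% of all genes were called. Under the shared term 7 of 19 were lower and none higher, where 45.6% of all were called. In the fit without that term, leaving out WT replicate 1 or 2, or any 1 Tfam+/- or Tfam+/-Zbp1-/- library, left 0 called.

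**Figure D3:**
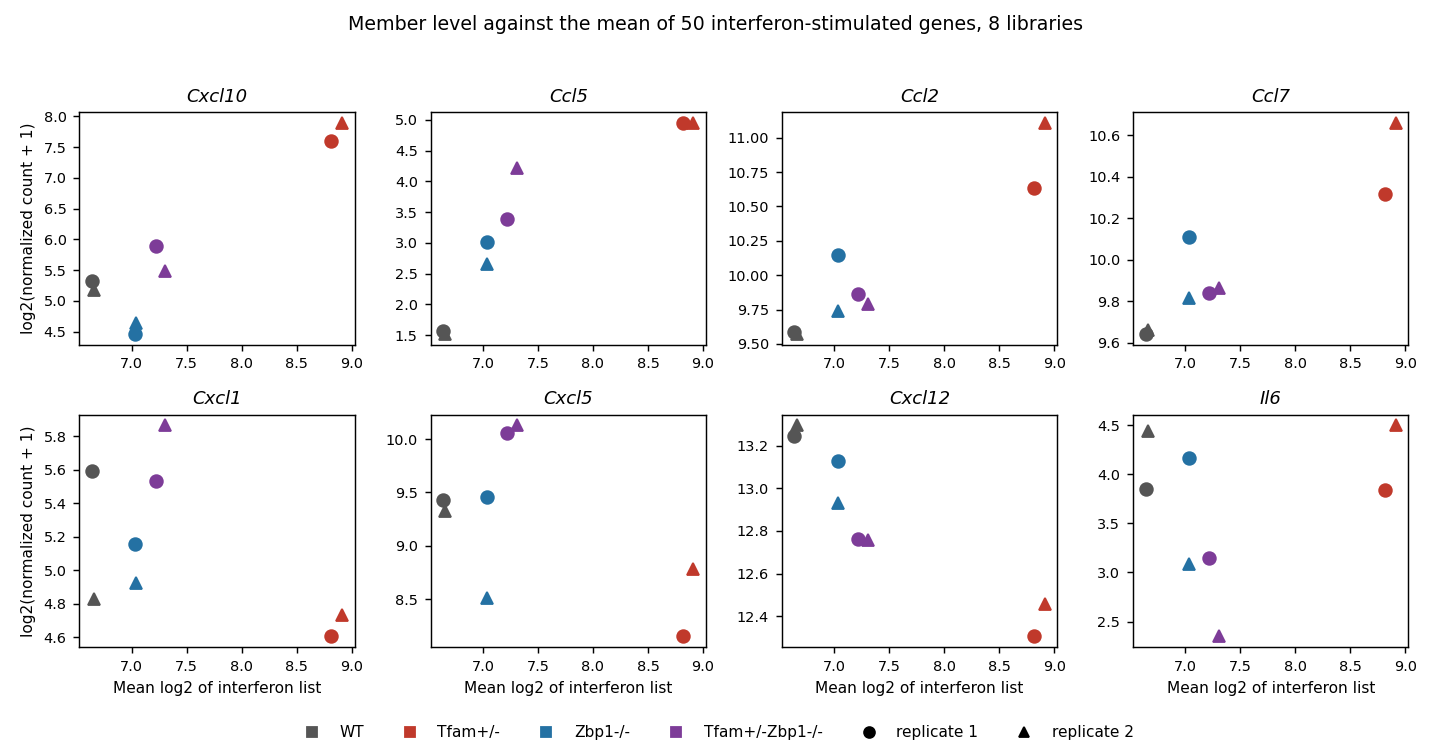
Log2(normalized count + 1) of each tested member (vertical axes, which do not start at 0) against the mean log2 level of 50 interferon-stimulated genes (horizontal axes) in the 8 libraries; colours are genotypes, circles replicate 1 and triangles replicate 2. The Tfam+/- libraries stand at 8.81 and 8.91 on the horizontal axis, highest for Cxcl10, Ccl5, Ccl2 and Ccl7 and lowest for Cxcl12, while Il6 in them spans the range of WT.

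Genes with the most similar profile to a member were taken by Pearson correlation of log2 levels over the 8 libraries among 13266 other tested genes. For Cxcl10 they were Rsad2 (0.99), Apol9b (0.98), Myc (0.97), Ifi44 (0.97) and Pum3 (0.96). Rsad2 and Ifi44 belong to the interferon list, and Rsad2 shared with Cxcl10 the lower Zbp1-/- values, 14.6 and 16.2 against 24.5 and 21.4 in WT. For Ccl2 they were Ccl7 (0.99), Ifi204 (0.98), Trim30a (0.98), Zc3hav1 (0.98) and Trim30d (0.98). For Ccl7 they were Ccl2 (0.99), Ifi203 (0.97), Gbp9 (0.97), Ifi204 (0.97) and Iigp1 (0.97), of which Ifi203 and Iigp1 belong to the interferon list. Cxcl5 was closest to Evx2, Bnc2, Hoxa10, Gabrb2 and Prkaa2, all at 0.99, which include homeobox genes. For Cxcl12 they were Enpep (0.97), Acyp2 (0.96), Tfam itself (0.95), Aldh1l2 (0.95) and Cd80 (0.95). Ccl5 was closest to Hap1 (0.98), Tcea2 (0.97), Tdrd7 (0.96), Ddx60 (0.94) and Zzef1 (0.94). These values are the highest of many and rest on 8 libraries of 4 genotypes. Only membership of the interferon list was checked for these genes. A gene outside that list, such as Ifi204 or Trim30a beside Ccl2, may still respond to interferon, which was not tested.

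The rest of the chemokine family was sparse. Of 30 other ligands 25 were above 0 somewhere and 15 were tested. In Tfam+/- against WT 1 passed and was lower, where 0.731% of all genes passed, and under the shared term 4 were higher and 1 lower, where 15.6% did. In Tfam+/-Zbp1-/- against Tfam+/- 1 was higher and 2 lower (5.64% of all), and under the shared term 2 were higher and 4 lower (45.6% of all). Cxcl15, a lung-type ligand of the same subfamily, lies between Cxcl5 and Cxcl1 on chromosome 5 (90794534 to 90803067), 32908 bases from the first and 88177 from the second. It was at 33.7 and 32.2 for WT, 3.87 and 7.25 for Tfam+/-, 35.6 and 36.7 for Zbp1-/- and 106 and 97.6 for Tfam+/-Zbp1-/-. By genotype mean Cxcl15 had the layout of Cxcl5, lowest in Tfam+/- and highest in Tfam+/-Zbp1-/-. Cxcl15 fell in Tfam+/- against WT by a log2 change of -2.42 ± 0.28 and rose by 4.02 ± 0.28 from there to Tfam+/-Zbp1-/-, at limma adjusted p of 0.019 and 0.0024. Its interaction of 3.89 ± 0.40 passed as well (limma adjusted p = 0.020). Removing either Tfam+/-Zbp1-/- library ended all 3 calls of Cxcl15, at limma adjusted p of 0.083 and 0.084, 0.053 for both, and 0.21 and 0.18. Removing WT replicate 1 or 2 ended the first (0.21 and 0.19) and the interaction (0.18 and 0.16), as did Zbp1-/- replicate 2 for the interaction (0.066).

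The 2 ligands that fell in Tfam+/-Zbp1-/- against Tfam+/- were Ccl20, a ligand of Ccr6, and Cxcl16, a ligand of Cxcr6. Ccl20 was at 61.8 and 89.9 in Tfam+/- and at 17.96 to 28.2 in the other 6 libraries, a log2 change of -1.74 ± 0.27 (limma adjusted p = 0.016). Cxcl16 was at 167 and 133 in Tfam+/-, 88.0 and 98.7 in WT, and 55.0 and 64.8 in Tfam+/-Zbp1-/-, a log2 change of -1.30 ± 0.20 (limma adjusted p = 0.016). The Ccl20 call was lost in limma without WT replicate 1 or 2 (adjusted p = 0.052 for both) or Tfam+/-Zbp1-/- replicate 1 or 2 (0.14 and 0.071). The Cxcl16 call was lost without Tfam+/- replicate 1 (0.063) or Tfam+/-Zbp1-/- replicate 1 or 2 (0.15 and 0.095). Genes beside Ccl2 and Ccl7 were far less abundant. Ccl11 ran from 7.00 to 32.2 and Ccl8 from 6.52 to 28.9, neither called in any comparison, and Ccl12, at 0.946 to 18.7, was not tested. Beside Cxcl1 and Cxcl5, Cxcl2 ran from 1.04 to 6.42 and Cxcl3 from 1.80 to 13.0, too low to be tested, and Ppbp and Pf4 were not called in any comparison. Ccl9, Ccl6, Ccl3 and Ccl4, the neighbours of Ccl5, were not called either.

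**Figure D4:**
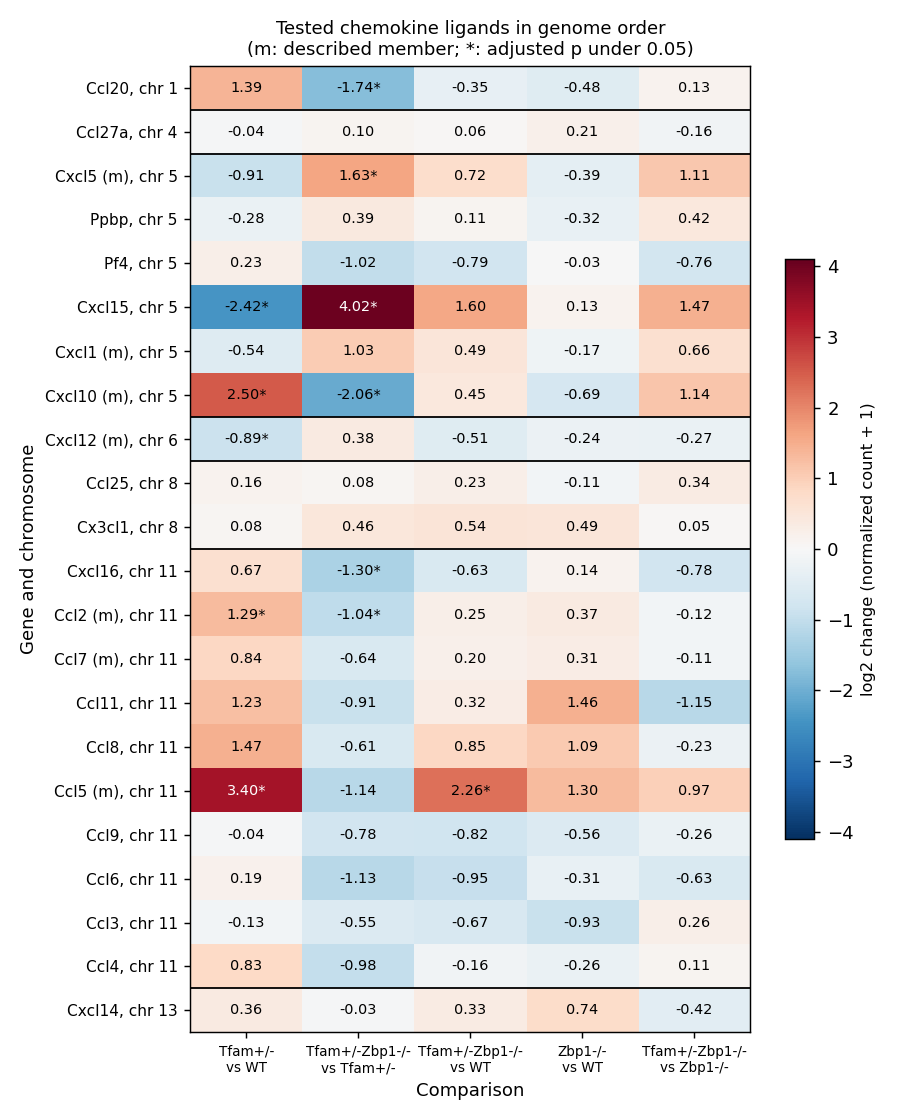
Log2 change of every tested chemokine ligand in 5 comparisons (columns), in order along the chromosomes (rows, with chromosome number); colour and printed value give the change on the log2(normalized count + 1) scale, m marks a described member and an asterisk a limma adjusted p under 0.05. Cxcl5, Cxcl15 and Cxcl1 are lower in the first column and higher in the second, with asterisks on both Cxcl15 values and on the 1.63 of Cxcl5, while Cxcl10 has the opposite signs at 2.50 and -2.06.

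Receptors for most of these ligands were hardly measured in the cultures. Of 25 receptor genes 9 were tested. In Tfam+/-Zbp1-/- against Tfam+/- 1 was higher and 1 lower, where 5.64% of all tested genes were called. Under the shared term 2 were higher and 4 lower, where 45.6% of all were called. Cxcr3, the receptor of Cxcl9 and Cxcl10, ran from 0 to 0.982, Cxcr2, that of Cxcl1 and Cxcl5, from 0 to 1.01, and Ccr2, that of Ccl2 and Ccl7, from 0 to 3.77. Cxcr4, the signalling receptor of Cxcl12, ran from 5.12 to 21.1. Ackr3, which takes up Cxcl12 from the medium, was at 721 and 675 for WT, 393 and 482 for Tfam+/-, 1009 and 888 for Zbp1-/- and 1055 and 1094 for Tfam+/-Zbp1-/-. It was lowest in Tfam+/-, as was Cxcl12, and rose by 1.30 ± 0.14 from Tfam+/- to Tfam+/-Zbp1-/- (limma adjusted p = 0.0044). Cx3cr1, a receptor of microglia and macrophages, fell by -1.08 ± 0.13 there (limma adjusted p = 0.0070) and by -0.87 ± 0.13 in Zbp1-/- against WT (adjusted p = 0.042). Without Tfam+/-Zbp1-/- replicate 1 or 2 the limma adjusted p in the first comparison was 0.069 and 0.068 for Ackr3 and 0.096 and 0.077 for Cx3cr1. The Zbp1-/- difference of Cx3cr1 was lost in limma without any 1 WT, Zbp1-/- or Tfam+/-Zbp1-/- library (adjusted p from 0.10 to 0.39).

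For Il6 both parts of the receptor were measured, Il6st, the shared signalling chain, at 5702 to 8971 and Il6ra, the binding chain, at 88.9 to 131, and neither was called in any comparison. Of 20 genes of the interleukin 6 family and other fibroblast cytokines 14 were tested. None passed in Tfam+/- against WT, where 0.731% of all tested genes did. Under the shared term 1 was higher and 3 lower, where 15.6% of all were called. The shared term gave 7 higher and 1 lower in Tfam+/-Zbp1-/- against Tfam+/-, where 45.6% of all tested genes were called. Without it 5.64% of all were called there, and 2 of the 14 passed. Of these Lifr, the receptor of leukaemia inhibitory factor, rose by 1.08 ± 0.20 (limma adjusted p = 0.026). Csf1, the macrophage growth factor, fell by -0.68 ± 0.12 in that comparison (limma adjusted p = 0.023). Both calls were lost in limma without WT replicate 1 or 2, Tfam+/- replicate 1, or Tfam+/-Zbp1-/- replicate 1 or 2, with adjusted p from 0.066 to 0.19 for Lifr and 0.069 to 0.197 for Csf1. The inflammatory inducers Tnf and Il1b were low in all libraries, at 3.29 to 14.5 and at 0 to 5.67.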

How the data were processed

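RNA sequencing of 8 libraries was analysed from the deposited table, in which the authors' normalized counts are a per-gene signal with fractional values. Reads were aligned to mm10 with STAR in RNAseq Alignment 2.0.0 on BaseSpace and compared with RNA-seq Differential Expression 1.0.0, per the series' design text; STAR is version 2.6.1a per the submitters' processing notes, which also name Salmon without a role. How reads were counted and scaled, and whether strand was used, is not stated in the labels, so overlapping genes and near-identical copies (Ccl2, Ccl7 and Ccl12; Cxcl1, Cxcl2 and Cxcl3) are uncertain. Of low values in the deposited signal, 22.2% to 34.9% per library came within 0.01 of whole multiples of the commonest value above 0, so read counts were not recovered and no count test was run.

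Genes with a mean of at least 10 (13267 of 24972) were tested on log2(value + 1) with limma 3.58.1 in R 4.3.3 (trended prior, 4 genotypes in 1 fit, 2-sided, Benjamini-Hochberg over all tested genes, called at adjusted p under 0.05). A log2 fold on this scale understates changes of low genes, errors are SE, and the smallest exact permutation p for 2 libraries against 2 is 0.333. The code was checked on simulated data. The members, the lists and the rule for named genes (members, called ligands and receptors, chemokine neighbours, at most 4 genes of other lists, the 5 closest profiles) were chosen with earlier results of these data known, so their counts are a description. Ranges and single neighbours outside that rule were picked after their values were seen. Alternatives were other pseudocounts and filters, a prior without trend, trimmed-mean scaling, only the genotypes compared, a replicate block and each library left out, and, after seeing the data, the shared term and 6 libraries. Coordinates are RefSeq on GRCm38.p6, 1-based. Lengths are merged GENCODE M21 exons.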

Additional observations from a re-analysis of the deposited data

How the results depend on the processing

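The number of members called in limma was 4 (Tfam+/- against WT), 3 (Tfam+/-Zbp1-/- against Tfam+/-), 1 (Tfam+/-Zbp1-/- against WT) and 0 in the other comparisons. In Tfam+/- against WT it was 2 with a mean of at least 50, 1 with only the genotypes compared, and 0 to 4 without 1 library. In Tfam+/-Zbp1-/- against Tfam+/- it was 0 to 4 without 1 library, and in Tfam+/-Zbp1-/- against WT it was 0 without any 1 library, with a pseudocount of 5, without the filter, or with a mean of at least 50, at which Ccl5 was not tested, and 6 with only the genotypes compared. With only the genotypes compared, Tfam+/-Zbp1-/- against WT also had 35 of 50 interferon list genes called higher, against 2 in the fit of all 4 genotypes. It had 3 of 19 NF-kB targets higher and 3 lower, against 0. A replicate block gave 1, 1 and 0 members in Tfam+/- against WT, Tfam+/-Zbp1-/- against Tfam+/- and Tfam+/-Zbp1-/- against WT. The replicate numbers did not pair the samples, since same-numbered deviations correlated at -0.70 to 0.06. With the shared term, chosen after seeing the data, the counts were 6, 7 and 6, and 5, 5 and 6 in Zbp1-/- against WT, Tfam+/-Zbp1-/- against Zbp1-/- and the interaction; with 6 libraries they were 6, 7, 6, 4, 5 and 6. Signs reversed only among changes that were not called. Leaving out 1 library gave -0.30 to 0.35 for Il6 in Tfam+/- against WT; in Zbp1-/- against WT -0.55 to 0.21 for Cxcl1, -0.87 to 0.083 for Cxcl5 and -1.06 to 0.023 for Il6; and in Tfam+/-Zbp1-/- against Zbp1-/- -0.32 to 0.086 for Ccl2 and -0.26 to 0.035 for Ccl7. Cxcl5 in Zbp1-/- against WT was 0.0028 with the shared term and 0.083 with 6 libraries, and Il6 was 0.023 with 6 libraries. Trimmed-mean scaling moved the median of all genes from 0.12 to -0.0017 in Tfam+/-Zbp1-/- against WT and from 0.14 to 0.015 against Tfam+/-, and reversed no member. The cause of these shifts was not tested. For Il6 in Tfam+/- against WT, changes within its 95% interval could not be told from no change. Smaller changes were called for members with a smaller error.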

Other observations

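Among the other chemokine ligands, 5 that macrophages make were chosen after their values were seen. Tfam+/- libraries had Ccl9 at 119.6 and 124, against 69.4 and 72.0 for Tfam+/-Zbp1-/-, a log2 change of -0.78 ± 0.19 (limma adjusted p = 0.069). Ccl6 had -1.13 ± 0.45, Pf4 -1.02 ± 0.44, Ccl4 -0.98 ± 0.39 and Ccl3 -0.55 ± 0.32, none of them called in limma (adjusted p from 0.21 to 0.36). The summed macrophage and leukocyte markers went from 6895 to 8224 in Tfam+/- to 2992 to 3008 in Tfam+/-Zbp1-/-. None of these 5 ligands was lowest in WT, unlike Ccl5, their neighbour on chromosome 11 in 4 cases. Ccl8, a ligand outside the 5, did share this feature with Ccl5. Its lowest values were those of the WT libraries, 6.52 and 9.81. Its highest were those of the Tfam+/- libraries, 19.8 and 28.9. The part of macrophages in the level of Ccl5 was not tested.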
